A study of Mus musculus with 12 samples.

Results

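Cadherin transcripts were followed in pontine nucleus neurons of the mouse embryo, in neurons marked through Hoxa5, in neurons whose labels name a Hoxa5 transgene, and in the wider Math1 population that served as the reference. The 10 genes Cdh2, Cdh4, Cdh6, Cdh7, Cdh8, Cdh9, Cdh10, Cdh11, Cdh12 and Cdh13 were taken by symbol from a count table of 23079 genes, and all 10 passed the filter on low counts that kept 14732 genes. Cdh2 and Cdh4 encode type I classical cadherins, and Cdh6 to Cdh12 encode type II classical cadherins. Cdh13 encodes T-cadherin, which is held in the membrane by a lipid anchor and lacks the cytoplasmic tail of the classical cadherins, so the name of the set is loose for that gene.

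Classical cadherins are calcium-dependent adhesion molecules whose outer domains bind cadherins on neighbouring cells and whose cytoplasmic tails bind catenins, which connect them to actin. Type I and type II members bind mainly within their own type, and many neuronal groups of the hindbrain and spinal cord carry their own combination of type II cadherins. N-cadherin, the product of Cdh2, is also known for its part in neuronal migration and in the adhesion of young synapses. Hoxa5 encodes a homeodomain transcription factor that patterns the body axis.

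All neurons came from the pontine nucleus of CD-1 embryos at stage E18.5, and 2000 FACS-sorted cells went into each library, of which RNA of 1000 cell equivalents was amplified. Hoxa5tdTomato (n = 3, columns that name Hoxa5 and cre) holds neurons marked with the red fluorescent protein tdTomato through Hoxa5. Math1Hoxa5-IRES-GFP (n = 3, columns that name Math1, Cag, lsl and Hoxa5) holds neurons whose label names a Hoxa5 allele joined to green fluorescent protein. The reference, Math1tdTomato (n = 6), was marked through Math1, also named Atoh1, which is expressed by the progenitors of pontine neurons in the rhombic lip of the hindbrain. In 3 reference columns the name holds creErt2 and in the other 3 it holds tdT, and these are called the creErt2 references and the tdT references. The labels give neither the number of embryos behind a library nor whether the replicates are separate animals, so p values measure the spread between these libraries, which may be technical.

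The Hoxa5tdTomato libraries and the creErt2 references had 9973484 to 13302076 counts each, and the libraries labelled Math1Hoxa5-IRES-GFP and the tdT references had 22355961 to 29820776. Depth therefore changes together with these sets, and the pairing of references with groups is stated nowhere in the labels. Hoxa5 itself stood at 127, 222 and 119 CPM in Hoxa5tdTomato, at 9.73, 16.8 and 82.0 CPM in the libraries labelled Math1Hoxa5-IRES-GFP, and between 4.35 and 32.2 CPM in the references. It rose in Hoxa5tdTomato (log2 fold change 3.46 ± 0.59 (SE), adjusted p = 0.00712), while in the libraries labelled Math1Hoxa5-IRES-GFP replicate 3 alone lay above every reference and the gene did not pass (1.35 ± 0.59, adjusted p = 0.255). Directions drawn from the last group thus rest on its label. Its replicate 3 also stood apart, with 13074 genes detected and a correlation with its sister libraries of 0.861 and 0.868 across genes, against 0.926 to 0.943 between replicates within the other groups and kinds of reference. Markers of pontine and glutamatergic neurons summed to 5364 to 5748 CPM in Hoxa5tdTomato, 6905 to 9481 CPM in the libraries labelled Math1Hoxa5-IRES-GFP and 7085 to 9422 CPM in the references. Of these 8 markers 1 fell in Hoxa5tdTomato, Nfib, at 3095 ± 338 CPM against 5502 ± 600 CPM in the references (SD, n = 3 and 6; adjusted p = 0.00594), and the median log2 fold change of the 8 was -0.08. Endothelial markers summed to 87.5 to 171 CPM in Hoxa5tdTomato, against 0.201 to 35.6 CPM in the libraries labelled Math1Hoxa5-IRES-GFP and 0.749 to 22.4 CPM in the references, and 1 of 9 tested rose in Hoxa5tdTomato. Pericyte markers summed to 104 to 225 CPM in Hoxa5tdTomato, 5.22 to 63.3 CPM in the libraries labelled Math1Hoxa5-IRES-GFP and 2.00 to 25.6 CPM in the references, and 3 of 7 rose in Hoxa5tdTomato (Rgs5, Abcc9 and Anpep, the last listed at 0 in every reference). Markers of meninges and fibroblasts summed to 9.78 to 15.2 CPM in Hoxa5tdTomato, 0 to 7.24 CPM in the libraries labelled Math1Hoxa5-IRES-GFP and 0.729 to 3.99 CPM in the references, with 0 of 3 tested past the threshold. These marker calls, against all 6 references, stand beside 1.73% of all genes tested. Against the creErt2 references alone 0 of 9 endothelial and 0 of 7 pericyte markers passed and 1 of 8 neuron markers fell, beside 0.557% of all genes. Still, all 9 endothelial and all 7 pericyte markers were higher there, with median log2 fold changes of 3.42 and 3.59. Against all 6 references these medians were 3.36 and 3.50. In bulk samples fewer cells of a type and less RNA per cell cannot be told apart.

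CPM expresses each count in relation to the TMM-scaled total of the library. Log2 fold changes come from the quasi-likelihood test of edgeR on all 12 libraries, adjusted p values (Benjamini-Hochberg) cover all genes tested, and 0.05 is the threshold. A second fit, called within set, placed the creErt2 references against Hoxa5tdTomato and the tdT references against the libraries labelled Math1Hoxa5-IRES-GFP. Cdh2, the most abundant of the 10, was lower in all 6 libraries marked through or named for Hoxa5 than in any reference. Of all genes, 14.1% did not overlap between Hoxa5tdTomato and the references, and 6.37% between the libraries labelled Math1Hoxa5-IRES-GFP and the references. The share for both groups together was not computed. Against all 6 references Cdh2 fell in Hoxa5tdTomato by 0.75 ± 0.15 on the log2 scale. Within the set it was at -0.59 ± 0.14 there and did not pass (adjusted p = 0.0940). Its type I relative Cdh4 rose in the libraries labelled Math1Hoxa5-IRES-GFP by a log2 fold change of 1.09 ± 0.25. None of the 7 type II genes, nor Cdh13, passed the threshold in any comparison of groups, where 0.557% to 3.35% of all genes did.

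Levels between genes were compared per gene length, as RPKM. In Hoxa5tdTomato the order ran from Cdh2 (57.5 ± 5.98 RPKM, mean ± SD, n = 3) over Cdh8 (23.6 ± 3.83) and Cdh7 (23.4 ± 1.21) to Cdh11 (9.63 ± 2.37), Cdh4 (6.73 ± 1.25), Cdh13 (3.68 ± 1.58), Cdh9 (2.96 ± 1.22), Cdh6 (2.62 ± 0.868), Cdh12 (1.52 ± 0.0336) and Cdh10 (1.42 ± 0.228). In the references Cdh2 (96.6 ± 15.1 RPKM, n = 6) was again first, ahead of Cdh7 (27.0 ± 2.74), Cdh8 (23.4 ± 7.40), Cdh11 (8.89 ± 2.46), Cdh4 (5.19 ± 0.964), Cdh13 (2.24 ± 0.586), Cdh6 (1.49 ± 0.599), Cdh12 (1.22 ± 0.742), Cdh9 (0.691 ± 0.650) and Cdh10 (0.676 ± 0.330). Cdh2 did not overlap with the next gene in any group, while Cdh7 and Cdh8 overlapped in all 3 groups. In the libraries labelled Math1Hoxa5-IRES-GFP Cdh4 (11.0 ± 4.93 RPKM, n = 3) took the fourth place before Cdh11 (5.77 ± 3.23), and these 2 genes overlapped in all 3 groups. Over all libraries the mean RPKM of Cdh2 lay at percentile 97 of the genes tested, those of Cdh8 and Cdh7 at 83.9 and 83.5, and that of Cdh10, the lowest, at 17.3.

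**Figure D1:**
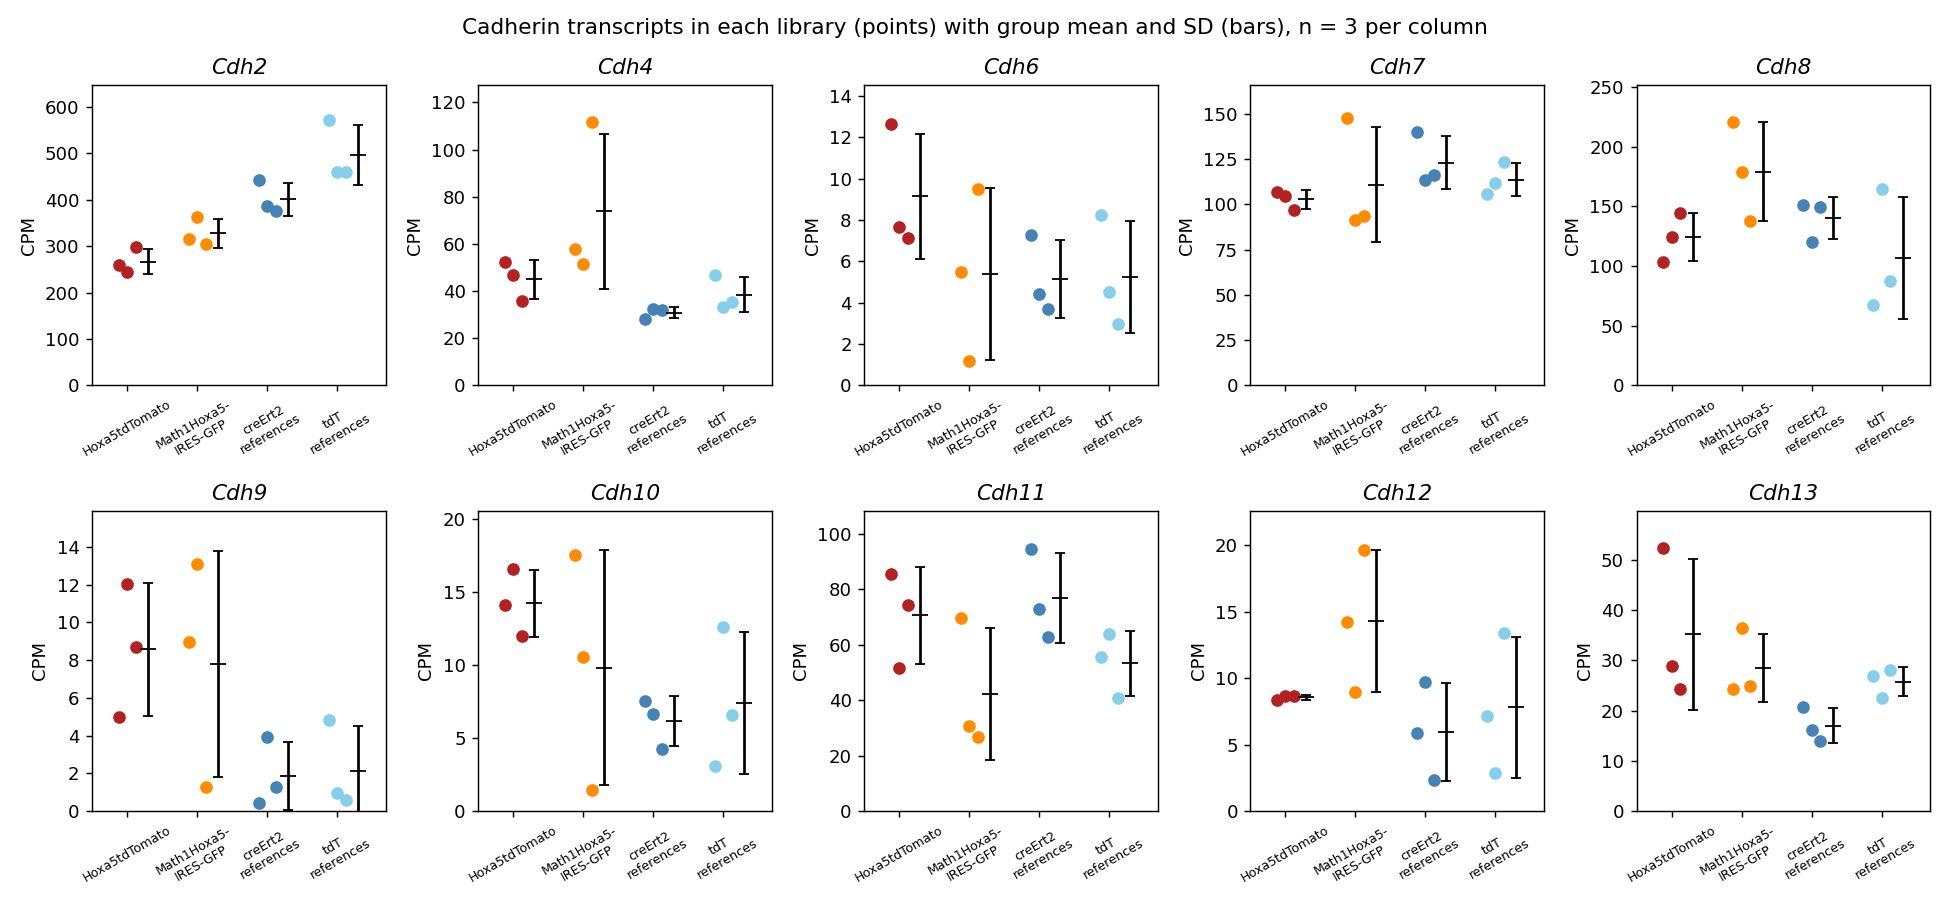
CPM of each of the 10 cadherin genes (vertical axes, from 0) in the 12 libraries, with Hoxa5tdTomato, Math1Hoxa5-IRES-GFP, creErt2 references and tdT references from left to right; points are libraries, and the bars beside them are the mean ± SD of 3 libraries (cropped at 0 for Cdh9). For Cdh2 the 6 libraries on the left, at 243 to 364 CPM, lie below the 6 references, at 375 to 572 CPM.

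Cdh2 (mouse chromosome 18) stood at 260, 243 and 298 CPM in Hoxa5tdTomato. In the libraries labelled Math1Hoxa5-IRES-GFP it stood at 315, 364 and 305 CPM. It was at 442, 386 and 375 CPM in the creErt2 references and at 572, 459 and 459 CPM in the tdT references. Neither group overlapped with the references, and the creErt2 references were themselves all below the tdT references (log2 fold change -0.31 ± 0.14, adjusted p = 0.369). Against all 6 references Cdh2 fell in Hoxa5tdTomato (-0.75 ± 0.15, adjusted p = 0.0184), and in the libraries labelled Math1Hoxa5-IRES-GFP it was at -0.45 ± 0.15 (adjusted p = 0.133). Both comparisons share the 6 references.

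Within sets, which share no references, the change of Cdh2 was -0.59 ± 0.14 in Hoxa5tdTomato (adjusted p = 0.0940) and -0.60 ± 0.14 in the libraries labelled Math1Hoxa5-IRES-GFP (adjusted p = 0.0643). Neither passed, and the difference between these log2 changes was 0.01, with a 95% interval of -0.38 to 0.40 (adjusted p = 0.998). The DESeq2 test within sets gave adjusted p values of 0.0214 for Hoxa5tdTomato and 0.00721 for the libraries labelled Math1Hoxa5-IRES-GFP. This DESeq2 fit was chosen after seeing the data, and in the second group it called more of all genes than edgeR did. The call in Hoxa5tdTomato against all references was lost without its replicate 1 (adjusted p = 0.150), replicate 2 (0.152) or replicate 3 (0.0685), with fold changes of -0.73, -0.69 and -0.84. Within Hoxa5tdTomato, replicate 3 had the highest Cdh2 level and also the highest sum of endothelial markers, 171 CPM against 94.3 and 87.5 CPM in replicates 1 and 2, and of pericyte markers, 225 CPM against 107 and 104 CPM. The part of other cell types in the Cdh2 difference was not tested.

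Cdh4 (chromosome 2, 179442431 to 179899373 on GRCm38, plus strand) encodes R-cadherin, which is known from axon outgrowth in the developing brain and retina. It stood at 52.3, 46.8 and 35.9 CPM in Hoxa5tdTomato and at 58.0, 51.6 and 112 CPM in the libraries labelled Math1Hoxa5-IRES-GFP. The creErt2 references had 28.2, 32.4 and 31.9 CPM and the tdT references 47.0, 33.3 and 35.2 CPM. Every library labelled Math1Hoxa5-IRES-GFP was above every reference, and replicate 3 was the highest. Hoxa5tdTomato overlapped with the references as a whole but lay above all creErt2 references.

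Cdh4 rose in the libraries labelled Math1Hoxa5-IRES-GFP against the references (1.09 ± 0.25, adjusted p = 0.0342; 73.8 ± 33.0 against 34.7 ± 6.44 CPM, mean ± SD, n = 3 and 6). Without replicate 3 of that group the log2 fold change was 0.66 and did not pass (adjusted p = 0.181). The call was also lost without any 1 of the creErt2 references, tdT references 2 or 3, or Hoxa5tdTomato replicates 1 or 2, at fold changes of 1.04 to 1.09 and adjusted p values of 0.0519 to 0.0791. Within the set it was at 0.94 ± 0.30 (adjusted p = 0.178), and at 0.51 (0.342) when replicate 3 was left out as well. In Hoxa5tdTomato Cdh4 was at 0.37 ± 0.26 against all references (adjusted p = 0.571) and at 0.54 ± 0.30 within the set (0.659). The within-set changes of Cdh4 differed by -0.39, with a 95% interval of -1.22 to 0.43 (adjusted p = 0.860).

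**Figure D2:**
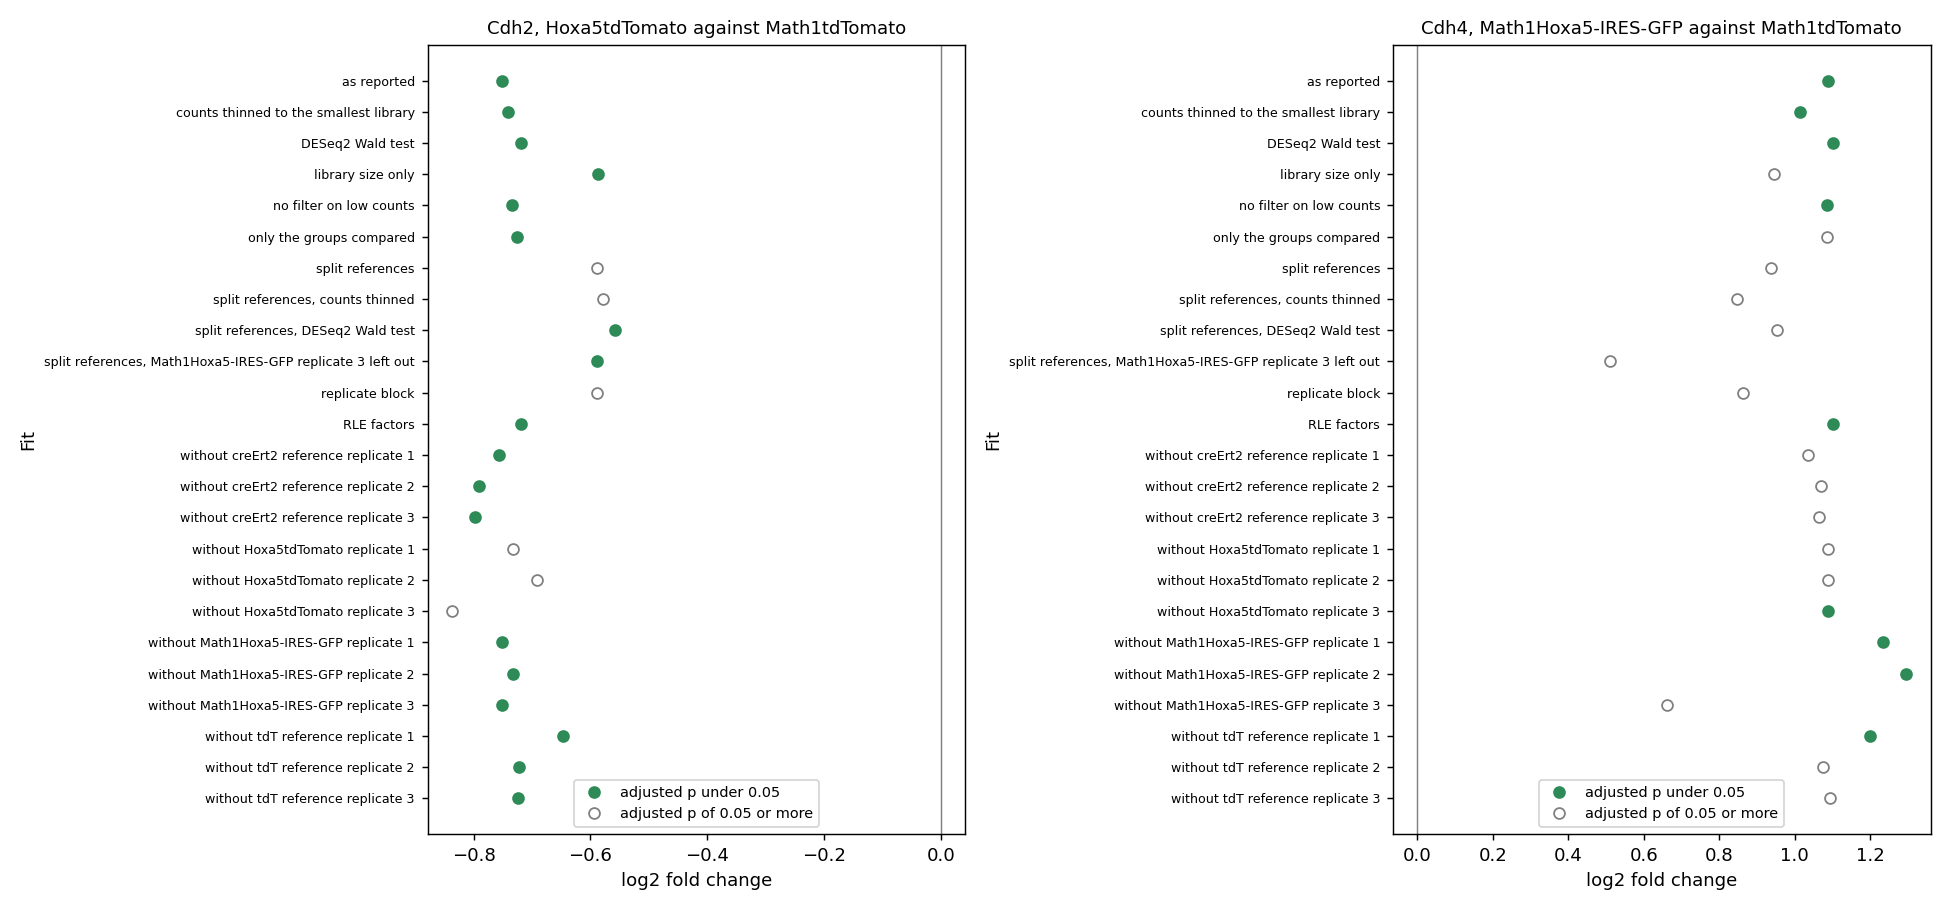
Log2 fold change (horizontal axes) of Cdh2 in Hoxa5tdTomato (left) and of Cdh4 in Math1Hoxa5-IRES-GFP (right) against Math1tdTomato under each fit, listed down the vertical axes; filled points have an adjusted p under 0.05. Each value for Cdh2 is below 0 and each for Cdh4 above 0, while the adjusted p crosses the threshold between fits.

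The ratio of Cdh2 to Cdh4 within a library does not depend on how libraries are scaled. This ratio of RPKM values was 7.14, 7.48 and 11.9 in Hoxa5tdTomato and 7.81, 10.1 and 3.93 in the libraries labelled Math1Hoxa5-IRES-GFP. In the references it was 22.5, 17.1 and 16.9 with creErt2 and 17.5, 19.9 and 18.8 with tdT. The 6 libraries marked through or named for Hoxa5 thus lay below all 6 references, and the means of the creErt2 and tdT references, 18.9 ± 3.16 and 18.7 ± 1.17 (SD, n = 3 each), differed by less than their spread. The ratio was formed after the values of both genes were known and is given as a description.

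**Figure D3:**
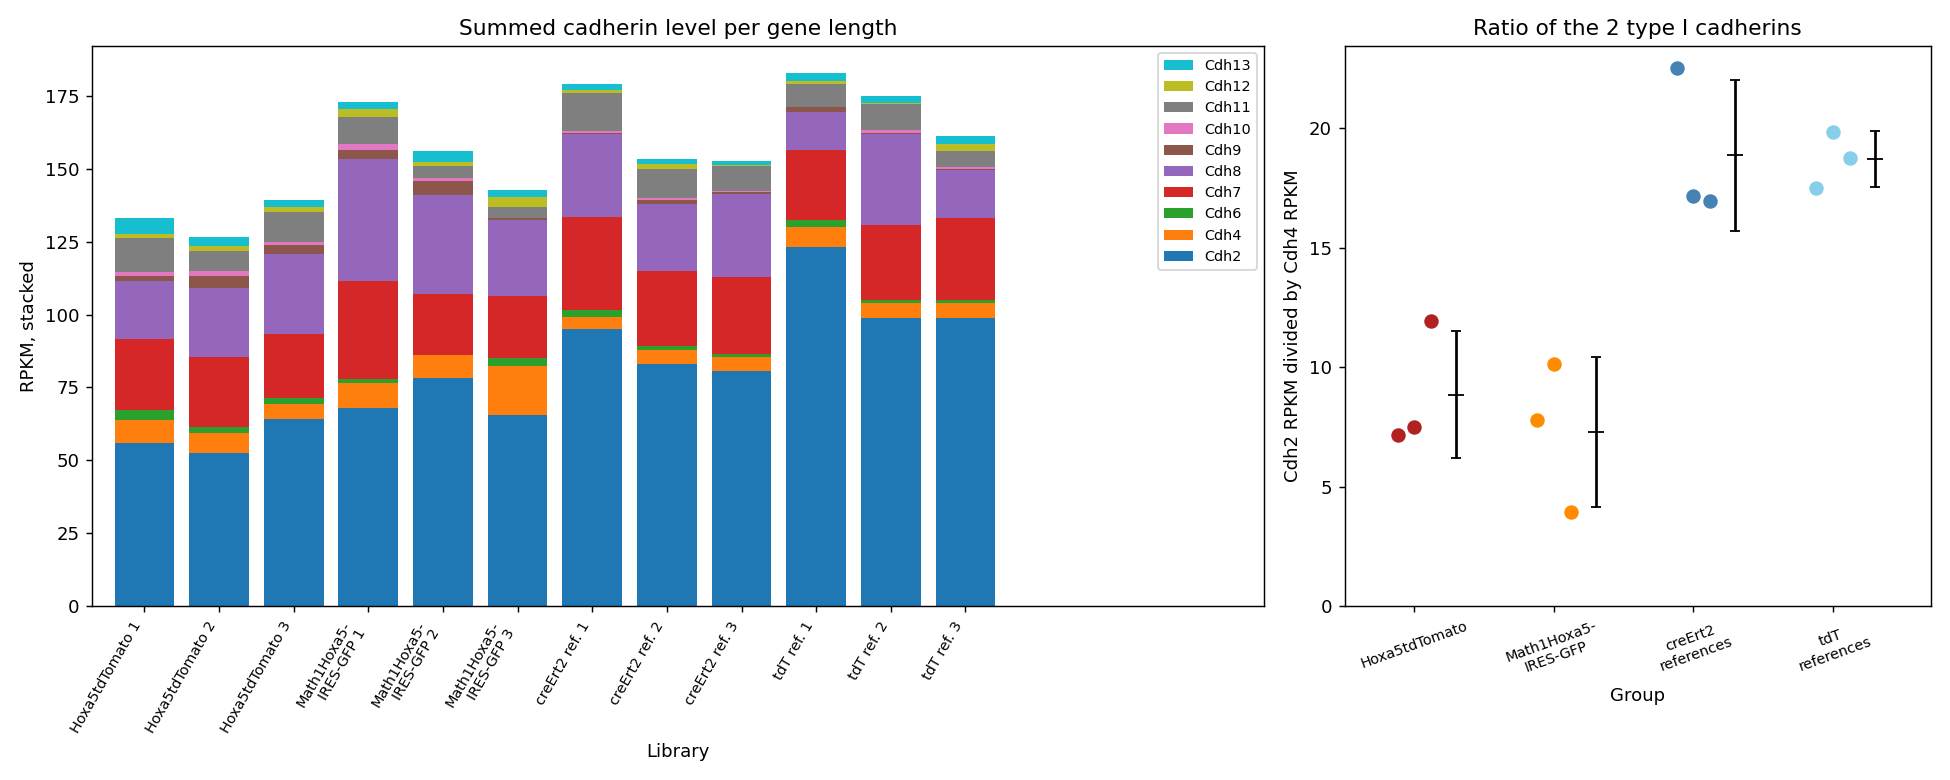
Left, RPKM of the 10 cadherins stacked from 0 for each of the 12 libraries; right, Cdh2 RPKM divided by Cdh4 RPKM (vertical axis, from 0) by group, with points for libraries and bars for the mean ± SD of 3 libraries. The ratio is 3.93 to 11.9 in Hoxa5tdTomato and Math1Hoxa5-IRES-GFP and 16.9 to 22.5 in the references.

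Of the summed RPKM of the 10 genes, Cdh2 made up 43.1 ± 2.48% in Hoxa5tdTomato (SD, n = 3), 45.1 ± 5.48% in the libraries labelled Math1Hoxa5-IRES-GFP (n = 3) and 57.5 ± 5.68% in the references (n = 6). The highest of the first 2 groups was 50.1% and the lowest reference 52.9%, so these shares did not overlap. They are built from the Cdh2 values already shown to be apart, so they are a description and no separate result. The summed RPKM of the 7 type II genes was 63.9 to 67.3 in Hoxa5tdTomato, 57.9 to 93.9 in the libraries labelled Math1Hoxa5-IRES-GFP and 50.1 to 77.6 in the references, and there all groups overlapped.

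Among the type II genes Cdh7, Cdh8 and Cdh11 were the most abundant. Cdh7 (chromosome 1, 109982431 to 110140157, plus strand), known as a cadherin of migrating and hindbrain neurons from the chick, stood at 107, 105 and 96.7 CPM in Hoxa5tdTomato. It stood at 147, 91.5 and 93.8 CPM in the libraries labelled Math1Hoxa5-IRES-GFP and at 106 to 140 CPM in the references, with a median of 115. All groups overlapped, although Hoxa5tdTomato was below every creErt2 reference (within set -0.26 ± 0.20, adjusted p = 0.828). Its spread was the smallest of the 10 genes, with a coefficient of variation of 15.3% over the 12 libraries.

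Cdh8 (chromosome 8, minus strand), a cadherin of subsets of neurons and their synapses, stood at 104, 124 and 144 CPM in Hoxa5tdTomato and at 220, 179 and 137 CPM in the libraries labelled Math1Hoxa5-IRES-GFP. The references held 67.4 to 164 CPM with a median of 135 CPM, so the groups overlapped. The log2 fold change was 0.01 ± 0.25 in Hoxa5tdTomato against the references (adjusted p = 0.995) and turned to -0.18 within the set. In the libraries labelled Math1Hoxa5-IRES-GFP it was 0.54 ± 0.25 (adjusted p = 0.281) and 0.75 ± 0.28 within the set (0.250). The within-set changes of Cdh8 lay furthest apart among the 10 genes at -0.93 ± 0.39, which did not pass (adjusted p = 0.585). The gene overlaps an antisense transcript, Gm15679, and since the sources used here do not say whether counting used strand, their reads cannot be told apart.

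Cdh11 (chromosome 8, minus strand), also a cadherin of mesenchyme, stood at 85.7, 51.6 and 74.6 CPM in Hoxa5tdTomato and at 69.6, 30.6 and 26.7 CPM in the libraries labelled Math1Hoxa5-IRES-GFP. The references held 40.8 to 94.8 CPM with a median of 63.4 CPM. Replicates 2 and 3 labelled Math1Hoxa5-IRES-GFP were below all other libraries, and replicate 1 was not. The log2 fold change of that group against the references was -0.62 ± 0.31 (adjusted p = 0.334), and it was -1.18 and passed without replicate 1 (adjusted p = 0.0454). Hoxa5tdTomato against the libraries labelled Math1Hoxa5-IRES-GFP was at 0.74 ± 0.36 (adjusted p = 0.234) and at 1.30 without replicate 1 of the second group (0.0318).

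Cdh6, Cdh9, Cdh10 and Cdh12 lie in 1 region of chromosome 15, between 13028701 and 21589533 on GRCm38, and were the scarce members with 5 to 392 counts in a library. Cdh9 stood at 4.98, 12.1 and 8.69 CPM in Hoxa5tdTomato, at 8.99, 13.1 and 1.30 CPM in the libraries labelled Math1Hoxa5-IRES-GFP, and at 0.444 to 4.85 CPM in the references, with a median of 1.11. All 3 Hoxa5tdTomato libraries were above all references, but the lowest (4.98 CPM) was barely above tdT reference 1 (4.85 CPM), and replicate 3 labelled Math1Hoxa5-IRES-GFP lay among the references. Its log2 fold changes were the largest of the set, 2.09 ± 0.79 in Hoxa5tdTomato (adjusted p = 0.205) and 1.95 ± 0.78 in the libraries labelled Math1Hoxa5-IRES-GFP (0.215), and neither passed. Within sets they were 2.19 ± 1.02 (adjusted p = 0.553) and 1.86 ± 1.00 (0.438). Cdh9 overlaps the antisense transcript Gm49127, so the same limit on strand holds.

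Cdh10 stood at 14.1, 16.6 and 12.0 CPM in Hoxa5tdTomato, at 17.5, 10.5 and 1.45 CPM in the libraries labelled Math1Hoxa5-IRES-GFP, and at 3.07 to 12.6 CPM in the references, with a median of 6.61. Hoxa5tdTomato lay above every creErt2 reference (4.26 to 7.55 CPM) and overlapped with tdT reference 2. The log2 fold change was 1.07 ± 0.58 against all references (adjusted p = 0.427) and 1.21 ± 0.72 within the set (0.715). The libraries labelled Math1Hoxa5-IRES-GFP were at 0.53 ± 0.59 (adjusted p = 0.691), and at -0.18 without replicate 1.

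Promoter sequence of Cdh9 and Cdh10 is shown because these neighbours were the type II genes that were higher in every Hoxa5tdTomato library than in every creErt2 reference, a choice made after their values were seen. The RefSeq table gives 300 bases around 1 transcript start of each gene on GRCm38.p6, and these starts lie 365 bases (Cdh9) and 1460 bases (Cdh10) inside the RefSeq gene, so both windows lie within the gene bounds. Shown, 5′ to 3′, are the bases of each window that come before the first GENCODE exon overlapping that window. For Cdh10 this is not the first exon of the gene, which GENCODE starts at 18818947, before the window. Its stretch thus lies inside the gene. Capitals mark TAAT, the core that homeodomain proteins bind, on either strand.
Cdh9, chr15:16728665-16728755, plus strand: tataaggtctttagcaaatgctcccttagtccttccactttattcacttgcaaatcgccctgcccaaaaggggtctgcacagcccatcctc
Cdh10, chr15:18820079-18820328, plus strand: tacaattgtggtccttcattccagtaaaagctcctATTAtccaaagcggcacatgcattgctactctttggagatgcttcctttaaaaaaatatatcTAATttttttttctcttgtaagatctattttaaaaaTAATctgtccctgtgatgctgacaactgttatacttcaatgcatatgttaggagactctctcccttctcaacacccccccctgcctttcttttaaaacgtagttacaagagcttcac
The stretch of Cdh10 held 3 matches to TAAT and that of Cdh9 held 0, while the exon part of the Cdh9 window held 2, which overlap each other. The longer motif TGATTNAT, a form bound by Pbx and Hox proteins together, matched once in that exon part, where it overlaps the TAAT matches, and not in Cdh10. Of 32851 RefSeq promoters of 300 bases, 58.0% held TAAT and 3.22% held TGATTNAT on either strand. TAAT alone is thus common, and a match is a description of the letters. The stretches shown are shorter, 91 bases for Cdh9 and 250 for Cdh10, so their counts are of unlike lengths. The full windows held 2 and 3 TAAT matches. G and C made up 37.7% of the Cdh10 window, against a median of 52.7% over all promoters. The table held promoters of 6 of the 10 genes, among which those of Cdh6 and Cdh8 had no TAAT, that of Cdh12 had 2 and the 3 of Cdh7 had 2, 0 and 2. No entry was matched for Cdh2, Cdh4, Cdh11 and Cdh13.

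Cdh6 stood at 12.6, 7.68 and 7.14 CPM in Hoxa5tdTomato, at 5.50, 1.17 and 9.48 CPM in the libraries labelled Math1Hoxa5-IRES-GFP, and at 2.96 to 8.24 CPM in the references, with a median of 4.49. All groups overlapped, and the log2 fold change in Hoxa5tdTomato was 0.81 ± 0.59 (adjusted p = 0.598). Cdh12, which is best known from the brain, stood at 8.36, 8.69 and 8.69 CPM in Hoxa5tdTomato, at 14.3, 8.95 and 19.7 CPM in the libraries labelled Math1Hoxa5-IRES-GFP, and at 2.35 to 13.4 CPM in the references, with a median of 6.50. Both groups overlapped with the references, and the change was 0.32 ± 0.52 in Hoxa5tdTomato (adjusted p = 0.859) and 1.05 ± 0.51 in the libraries labelled Math1Hoxa5-IRES-GFP (0.313). The 3 values of Cdh12 in Hoxa5tdTomato were nearly equal and all below the libraries labelled Math1Hoxa5-IRES-GFP. Cdh12 overlaps a transcript annotated as antisense, Gm49685.

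Cdh13 (chromosome 8, 118283733 to 119324921, plus strand), a guidance and signalling cadherin of neurons that blood vessels also express, stood at 52.4, 28.8 and 24.2 CPM in Hoxa5tdTomato. It stood at 24.2, 36.3 and 24.9 CPM in the libraries labelled Math1Hoxa5-IRES-GFP and at 14.0 to 28.0 CPM in the references, with a median of 21.6. Hoxa5tdTomato lay above all creErt2 references (14.0 to 20.8 CPM), which in turn lay below all tdT references (22.5 to 28.0 CPM). The log2 fold change in Hoxa5tdTomato was 1.05 ± 0.35 within the set (adjusted p = 0.290) and 0.71 ± 0.31 against all references (0.294). It was 0.31 against all references without replicate 1. That replicate held the most Cdh13 and the highest sums of microglial and astrocyte markers, 43.0 and 621 CPM, while endothelial markers were highest in replicate 3 (171 CPM), where Cdh13 was lowest. Astrocyte markers summed to 459 to 512 CPM in the creErt2 references, above Hoxa5tdTomato replicates 2 and 3 (399 and 366 CPM). Those references held less Cdh13 than these replicates. The part of such cells in the level of Cdh13 was not tested.

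Across the set, 1 of 10 genes passed in Hoxa5tdTomato against the references (Cdh2), beside 1.73% of all genes tested, and 1 of 10 in the libraries labelled Math1Hoxa5-IRES-GFP (Cdh4), beside 1.84%. In Hoxa5tdTomato against the libraries labelled Math1Hoxa5-IRES-GFP 0 of 10 passed, beside 3.35% of all genes, with 1 of 10 (Cdh4) at an unadjusted p under 0.05, as were 22.1% of all genes. Within sets 0 of 10 passed in Hoxa5tdTomato, beside 0.557% of all genes, and 0 of 10 in the libraries labelled Math1Hoxa5-IRES-GFP, beside 0.862%, with 3 of 10 each at an unadjusted p under 0.05, as were 8.91% and 13.7% of all genes. With the DESeq2 test, a within-set fit chosen after seeing the data, Cdh2 passed in both within-set comparisons. In the libraries labelled Math1Hoxa5-IRES-GFP that fit also called more of all genes than edgeR did. In the creErt2 against the tdT references 0 of 10 passed, beside 1.34%, and 1 (Cdh2) had an unadjusted p under 0.05, as had 12.9% of all genes. The difference of the within-set changes passed for 0% of all genes with edgeR, with 1181 genes at an unadjusted p under 0.05, and for 54 genes with DESeq2.

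**Figure D4:**
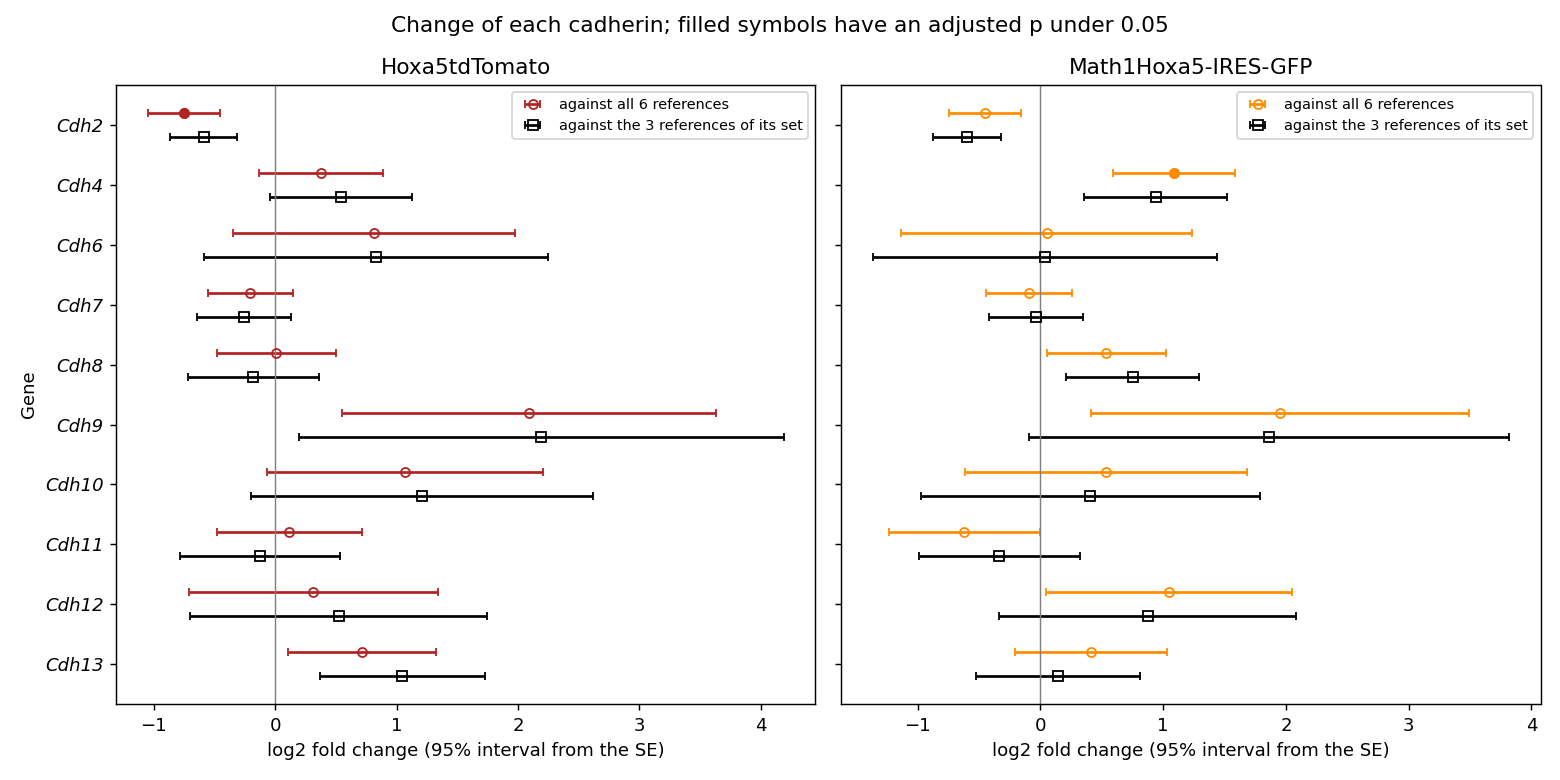
Log2 fold change of the 10 cadherins (horizontal axes, 95% interval of 1.96 SE) in Hoxa5tdTomato (left) and Math1Hoxa5-IRES-GFP (right), against all 6 references (circles) and against the 3 references of the same set (squares); filled symbols have an adjusted p under 0.05. Cdh2 in Hoxa5tdTomato and Cdh4 in Math1Hoxa5-IRES-GFP are the filled ones, both against all 6 references. The intervals use a normal multiplier and are narrower than the F test would give. For Cdh11 and Cdh12 in Math1Hoxa5-IRES-GFP against all 6 references they exclude 0, while the unadjusted p of the F test is 0.0644 and 0.0555.

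Groups did not overlap for 2 of 10 genes in Hoxa5tdTomato against the references (Cdh2 lower, Cdh9 higher), beside 14.1% of all genes, and for 2 in the libraries labelled Math1Hoxa5-IRES-GFP (Cdh2 lower, Cdh4 higher), beside 6.37%. Between Hoxa5tdTomato and the libraries labelled Math1Hoxa5-IRES-GFP 2 were apart (Cdh2 and Cdh12, both lower in Hoxa5tdTomato), beside 27.7%. Within sets 6 of 10 were apart in Hoxa5tdTomato (Cdh2 and Cdh7 lower, Cdh4, Cdh9, Cdh10 and Cdh13 higher), beside 25.3% of all genes, and 2 in the libraries labelled Math1Hoxa5-IRES-GFP (Cdh2 lower, Cdh4 higher), beside 12.5%. The creErt2 references were apart from the tdT references for 3 genes (Cdh2, Cdh4 and Cdh13, all lower with creErt2), beside 24.6%. The median log2 fold change of the 10 genes was 0.34 in Hoxa5tdTomato and 0.47 in the libraries labelled Math1Hoxa5-IRES-GFP, where those of all genes were 0.00 and -0.00.

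Between Hoxa5tdTomato and the libraries labelled Math1Hoxa5-IRES-GFP the largest differences short of the threshold were those of Cdh6 (0.76 ± 0.70, adjusted p = 0.562), Cdh11 (0.74 ± 0.36, 0.234), Cdh12 (-0.74 ± 0.61, 0.516) and Cdh4 (-0.71 ± 0.31, 0.177). Cdh2 was at -0.30 ± 0.17 (adjusted p = 0.323). The groups came from different depth classes, so depth and group cannot be told apart here. Of all genes, 135 rose and 358 fell in this comparison, and with library size as the only scaling 116 rose and 32 fell.

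As a description over 12 libraries, the genes whose log2 CPM was most like that of Cdh2 among 5564 well expressed genes were Nab1 (Pearson r = 0.948), Cdk12 (0.944) and Aff2 (0.937). For Cdh4 they were Cap2 (r = 0.951), Calm2 (0.931) and Ywhag (0.929). These libraries share groups and depth classes.

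Of 10 other cadherins of the classical group, 6 were tested and 0 passed in any comparison of groups, beside 0.557% to 3.35% of all genes. Cdh1 (E-cadherin) and Cdh19 had no count in any library. Cdh5, the VE-cadherin of endothelium, stood at 5.60, 10.9 and 14.5 CPM in Hoxa5tdTomato and at 0 to 3.08 CPM in the references. The libraries labelled Math1Hoxa5-IRES-GFP held 0, 7.33 and 0 CPM of Cdh5. In Hoxa5tdTomato Cdh5 was apart from the references, as were 14.1% of all genes, but did not pass (adjusted p = 0.319). It lay highest in Hoxa5tdTomato replicate 3, as did the sum of endothelial markers of which it is one. Cdh24, another type II cadherin, stood at 12.0, 20.8 and 20.9 CPM in Hoxa5tdTomato and at 27.0 to 51.8 CPM in the references (-1.11 ± 0.40, adjusted p = 0.180). The libraries labelled Math1Hoxa5-IRES-GFP held 20.9, 18.9 and 64.6 CPM of Cdh24. Both genes were named after their values were seen.

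Of 14 catenins and junction linkers 13 were tested and 0 passed in either comparison with all references, beside 1.73% of all genes in Hoxa5tdTomato and 1.84% in the libraries labelled Math1Hoxa5-IRES-GFP. Within the set Pkp4, a catenin relative of desmosomes and adherens junctions, fell in Hoxa5tdTomato, at 264 ± 3.03 CPM against 427 ± 27.0 CPM in the creErt2 references (-0.69 ± 0.13, adjusted p = 0.0256; SD, n = 3 each), as 1 of 13 beside 0.557% of all genes. The tdT references held 284 to 301 CPM of Pkp4 and the libraries labelled Math1Hoxa5-IRES-GFP 244 to 309 CPM, so the creErt2 references were the high ones. In the creErt2 against the tdT references Pkp4 rose (0.55 ± 0.13, adjusted p = 0.0489) and Ctnnd1, p120 catenin, fell (-0.92 ± 0.18, 0.0228), as 2 of 13 beside 1.34%. Of 11 genes that process cadherins, 1 rose and 0 fell in Hoxa5tdTomato against the references, beside 1.73% of all genes. This was Pcsk5, a proprotein convertase, at 41.4 ± 4.87 CPM against 16.3 ± 5.98 CPM (1.35 ± 0.32, adjusted p = 0.0391), and within the set it was at 1.22 and did not pass (0.256). Against the libraries labelled Math1Hoxa5-IRES-GFP it rose as well (1.75 ± 0.39, adjusted p = 0.0313).

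Of 14 membrane partners of cadherins 13 were tested, and 0 rose and 1 fell in Hoxa5tdTomato against the references, beside 1.73% of all genes. This was Ptprk, a receptor tyrosine phosphatase, at 102 ± 19.0 CPM against 213 ± 46.8 CPM (-1.06 ± 0.23, adjusted p = 0.0263), with -0.86 and an adjusted p of 0.161 within the set. In the libraries labelled Math1Hoxa5-IRES-GFP 3 of 13 rose and 0 fell, beside 1.84%, namely the fibroblast growth factor receptors Fgfr2 (1.66 ± 0.23, adjusted p = 0.000644) and Fgfr1 (0.64 ± 0.15, 0.0304) and the adhesion molecule nectin 3 (Pvrl3; 1.11 ± 0.21, 0.00895). Fgfr2 stood at 158, 116 and 145 CPM in those libraries and at 29.1 to 57.4 CPM in the references, and it passed within the set too (1.58 ± 0.27, adjusted p = 0.00951), whereas Fgfr1 (0.0830) and Pvrl3 (0.0729) did not. In Hoxa5tdTomato against the libraries labelled Math1Hoxa5-IRES-GFP, Fgfr2 (-1.08 ± 0.27, adjusted p = 0.0449) and Ncam1 (-0.59 ± 0.15, 0.0443) fell, as 2 of 13 beside 3.35%, and Ncam1 was also lower in the creErt2 than in the tdT references (-0.40, adjusted p = 0.0484). Of 6 transcription factor genes that regulate cadherins 4 were tested, and Zeb1 (-0.93 ± 0.21, adjusted p = 0.0329) and Zeb2 (-1.49 ± 0.36, 0.0390), repressors of E-cadherin, fell in Hoxa5tdTomato against the libraries labelled Math1Hoxa5-IRES-GFP, as 2 of 4 beside 3.35%, while 0 passed against the references. The creErt2 references also lay below all tdT references for Zeb1 (134 to 206 against 244 to 256 CPM) and Zeb2 (29.5 to 41.9 against 42.9 to 71.5 CPM). There 0 of 4 passed, and 24.6% of all genes did not overlap. Depth and group cannot be told apart for these genes.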

How the data were processed

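RNA sequencing libraries were made from FACS-sorted, SPIA-amplified neurons, per the labels' protocols. The authors deposited raw read counts per gene, with gene length and no normalization, for 12 libraries; counts in the deposited table were used as they stand. The build mm10 and bcl2fastq 1.8.4 are named in the submitters' processing notes; no source used here names the aligner, the counter or the strand setting. Columns of Hoxa5tdTomato and Math1Hoxa5-IRES-GFP were matched to samples by name and number, those of the references to their group.

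Genes were kept with filterByExpr of edgeR 4.0.16 (R 4.3.3) at a minimum count of 10, scaled with TMM factors and tested with the quasi-likelihood F test, with 1 mean per group (common dispersion 0.312). Benjamini-Hochberg adjustment covered 14732 genes. RPKM used the table's gene length. Intervals are 1.96 SE, a normal multiplier, and are thus narrower than the F test would give. A fit with 4 groups split the references by their column names. DESeq2 1.42.0, other scalings, no filter, thinned counts, each library left out and a replicate block were alternatives. Positions came from GENCODE M21, promoters from RefSeq GRCm38.p6. The fit was tested on simulated data. Reads were amplified without molecular identifiers and do not count molecules independently. No library pair within a group or kind of reference was a duplicate by a chi-square comparison of counts. Pairs across them were not compared.

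The members, lists and comparisons were chosen with earlier results of these data known. Named were all 10 members, list genes past the threshold (up to 4 per list and comparison), and for each member called the 3 genes most like it at a mean log2 CPM of 5 or more.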

Additional observations from a re-analysis of the deposited data

Results flagged for a closer look

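Among the 6 Math1tdTomato references, tdT reference 1 had 47.0 CPM of Cdh4, farther from the next library than the spread of the other 5 would give by Dixon's criterion at 95%. This was 1 of 10 genes looked at in this way, and chance sets apart about 1 in 20 groups. Without this library the log2 fold change of Cdh4 in the libraries labelled Math1Hoxa5-IRES-GFP against the references was 1.20 and passed.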

How the results depend on the processing

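For the 10 genes, 30 fold changes were refitted under 23 alternatives, giving 690 values, of which 658 kept their direction. In these refits 21 calls were lost and 3 gained. The only calls open to loss were Cdh4 in the libraries labelled Math1Hoxa5-IRES-GFP and Cdh2 in Hoxa5tdTomato, both against the references. The Cdh4 call was lost in 15 of its 23 refits and the Cdh2 call in 6 of its 23. Alternatives that joined the split of the references with thinned counts, DESeq2 or the removal of Math1Hoxa5-IRES-GFP replicate 3 were chosen after seeing the data.

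Genes past the threshold in Hoxa5tdTomato against the references numbered 255 (124 rose, 131 fell), against 622 with DESeq2, 735 with only the groups compared, 82 with split references, 91 with split references on thinned counts and 72 with the replicate block. With 1 library left out they ran from 35 to 728. In the libraries labelled Math1Hoxa5-IRES-GFP they numbered 271 (191 rose, 80 fell), against 831 with DESeq2, 166 with only the groups compared, 127 with split references, 126 with split references on thinned counts, 558 with split references in DESeq2 and 77 with the replicate block, and 190 to 575 with 1 library left out. In Hoxa5tdTomato against the libraries labelled Math1Hoxa5-IRES-GFP they numbered 493, against 1484 with DESeq2, 148 with library size only, 142 with only the groups compared, 1191 with split references, 1165 with split references on thinned counts, 2001 with split references in DESeq2, 1365 with split references without replicate 3 and 88 with the replicate block, and 0 to 1157 with 1 library left out. With library size only, the median log2 fold change of all genes moved to 0.16, -0.13 and 0.30 in these comparisons, and the calls to 170 rising and 70 falling genes in Hoxa5tdTomato and 105 and 94 in the libraries labelled Math1Hoxa5-IRES-GFP.

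Cdh4 in the libraries labelled Math1Hoxa5-IRES-GFP was also lost with library size only (0.95, adjusted p = 0.0588), with only the groups compared (0.0778) and, as was Cdh2 in Hoxa5tdTomato, with the replicate block (0.332 and 0.187). Replicate numbers did not pair libraries (correlations of their deviations from -0.0289 to 0.0493), so the block is given here only. Of values that never passed, Cdh11 in Hoxa5tdTomato turned with split references (-0.12; thinned -0.12, DESeq2 -0.0937, without replicate 3 -0.13) and the block (-0.13), and ran from -0.0459 to 0.30 with 1 library left out. Cdh8 there turned likewise (-0.18; thinned -0.17, DESeq2 -0.15, without replicate 3 -0.18; block -0.18; -0.11 to 0.13). In the libraries labelled Math1Hoxa5-IRES-GFP, Cdh6 turned with library size only (-0.10), split references without replicate 3 (-0.65) and the block (-0.31; -0.64 to 0.53), Cdh7 with split references without replicate 3 (0.0727; -0.35 to 0.0322), and Cdh10 with the block (-0.0116; -0.18 to 1.05). In Hoxa5tdTomato against those libraries, Cdh7 turned with library size only (0.16; -0.22 to 0.15), Cdh9 with split references without replicate 3 (-0.36; -0.36 to 0.75) and Cdh13 with 1 library left out (-0.10 to 0.53). The cause of these changes was not tested. The genes with few counts, Cdh6, Cdh9, Cdh10 and Cdh12, had standard errors of 0.51 to 0.79 against the references.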
